A study of Mus musculus with 6 samples.

Results

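Amino acid transporters are membrane proteins that move amino acids across the plasma membrane, and 10 mouse genes for such carriers were followed here: Slc7a1, Slc7a3, Slc7a5, Slc7a11, Slc3a2, Slc1a4, Slc1a5, Slc6a9, Slc38a1 and Slc38a2. They were chosen by gene symbol from the 51826 gene rows of the deposited expression table, with the differences between the 2 groups of libraries already known, so their values in that comparison are given as a description. All 10 symbols were found, each on 1 row, and GENCODE M21 annotates all of them as protein-coding. The recipient cells were mouse bone marrow neutrophils, whose RNA was sequenced after they had received microvesicles, small membrane-bound particles released by other cells. Hepa1-6 cells, an established mouse hepatoma line that had been deprived of glucose, were the source of these vesicles. The Ctrl_MV group (3 libraries) received vesicles of wild-type Hepa1-6 cells, and the KD_MV group (3 libraries) received vesicles of Hepa1-6 cells with a knockdown of ezrin, a protein that links the membrane to actin. The glucose deprivation of the donor cells was thus shared by both groups, the labels name no neutrophils without vesicles, and they give no strain, age or exposure time. Whether the replicates came from separate animals or cultures is not stated, so a p-value here reflects variation among these libraries, possibly technical only.

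Cells take up amino acids through carriers of several families that differ in what they carry and what drives them. Cationic carriers bring in arginine and lysine, exchangers swap one amino acid for another, and sodium-coupled carriers concentrate neutral amino acids in the cell. When amino acids run short, uncharged transfer RNA activates the kinase GCN2, which phosphorylates the initiation factor eIF2alpha. Translation of the transcription factor ATF4 then rises, and ATF4 together with C/EBP proteins binds a composite DNA element (C/EBP-ATF response element) in genes for transporters and for amino acid synthesis. Cystine that is taken up is reduced to cysteine and used for glutathione, the main thiol antioxidant of cells, and leucine and arginine also act as signals of supply to the growth kinase mTORC1.

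The promoters of 2 transporters are shown because they hold the core of that element, TGATGNAA, on either strand. RefSeq promoter sequences (GRCm38.p6, the assembly of mm10; 250 bases before to 50 after the start of transcription, in the direction of transcription) were matched by symbol for 6 of the 10 genes, in 9 promoter windows. The promoters of Slc7a3, Slc7a5, Slc1a5 and Slc38a1 were not analysed here. Matches to the core are in capitals. They read TGATGCAA on the strand of the gene and TTGCATCA where the match is on the other strand. The window of Slc7a11 lies at chr3:50443564-50443863, on the minus strand, and that of Slc1a4 at chr11:20332664-20332963, also on the minus strand.
Slc7a11: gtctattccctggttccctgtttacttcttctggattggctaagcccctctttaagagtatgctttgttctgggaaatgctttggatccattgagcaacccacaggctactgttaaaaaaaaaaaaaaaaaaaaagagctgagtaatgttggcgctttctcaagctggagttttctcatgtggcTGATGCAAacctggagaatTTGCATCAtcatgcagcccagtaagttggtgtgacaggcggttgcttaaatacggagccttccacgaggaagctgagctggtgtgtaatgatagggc
Slc1a4: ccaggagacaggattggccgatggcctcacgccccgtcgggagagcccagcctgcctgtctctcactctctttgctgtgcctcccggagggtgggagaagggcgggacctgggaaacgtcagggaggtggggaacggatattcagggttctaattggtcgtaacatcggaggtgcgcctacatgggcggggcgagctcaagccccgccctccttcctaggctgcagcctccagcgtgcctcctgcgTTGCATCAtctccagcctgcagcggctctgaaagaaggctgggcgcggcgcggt

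The Slc7a11 window held 2 matches in opposite directions, beginning 66 and 47 bases before the start of transcription, and the Slc1a4 window held 1 match beginning 4 bases before it. Among all 32851 promoter windows of the table, 1304 (3.97%) held at least 1 match to TGATGNAA, against 2 of the 9 windows of the transporters. A second core, TGACNNNGC, is that of the antioxidant response element bound by NRF2, the transcription factor encoded by Nfe2l2. It was found in 4 of the 9 windows, in Slc7a1, Slc38a2 and 2 windows of Slc6a9, and in 4071 (12.4%) of all windows. The Slc7a11 and Slc1a4 windows held no match to it. Some genes have more than 1 window. Counted by gene, 2 of the 6 transporters held TGATGNAA, against 4.51% of all 27025 genes. TGACNNNGC was held by 3 of the 6, against 14% of all genes. These matches describe letters in a window of 300 bases and not binding.

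Total counts ran from 37346055 to 42043434 per library. Counts were scaled to CPM, that is, to a fixed library size, with TMM factors, which correct for differences in composition, and log2 differences are KD_MV minus Ctrl_MV with their standard error (SE). Hemoglobin transcripts took 8.96 to 10.6% of counts in Ctrl_MV and 1.03 to 1.18% in KD_MV. All 14 neutrophil markers were detected, and of these 8 fell and 1 rose, beside 24.9% lower and 27.8% higher over all genes tested. Their levels were far apart, as 2 markers named after their values were seen show, with Lcn2, a granule protein gene, at 4345 to 8984 CPM and Ly6g, the surface antigen commonly used to sort mouse neutrophils, at 1.68 to 2.77 CPM. Summed over the list, neutrophil markers were at 11630 to 12270 CPM in Ctrl_MV and 6404 to 7974 CPM in KD_MV. Most of that sum was Lcn2, at 8615 to 8984 CPM in Ctrl_MV and 4345 to 5151 CPM in KD_MV. The other markers are also named after their values were seen. Retnlg (log2 difference -2.34), Camp (-1.91), Mmp9 (-1.46), Csf3r (-0.84), Cxcr2 (-0.82), Itgam (-0.8) and Fcgr3 (-0.56) fell, as did Lcn2 (-0.87). The remaining markers did not follow Lcn2. S100a8 (log2 difference 0.03), S100a9 (-0.28), Mmp8 (0.21), Ltf (0.05) and Ly6g (-0.30) were not called, and Ngp rose (1.04). In RNA from a mix of cells, fewer cells of a type and less RNA per cell cannot be told apart.

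Across the 10 transporters, 8 were lower in KD_MV in every library than in any Ctrl_MV library, and Slc1a5 and Slc38a1 overlapped between the groups. The same 8 passed an adjusted p of 0.05 as lower in edgeR's quasi-likelihood test, a threshold that 52.6% of all 16071 genes tested passed in either direction and 24.9% passed as lower and 27.8% as higher. Groups that did not overlap, with KD_MV the lower, were found in 29.3% of all genes tested. The transporters' median log2 difference was -2.0, beside 0.03 over all genes tested. Since the members were proposed with this contrast known, nothing is read from these counts.

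**Figure D1:**
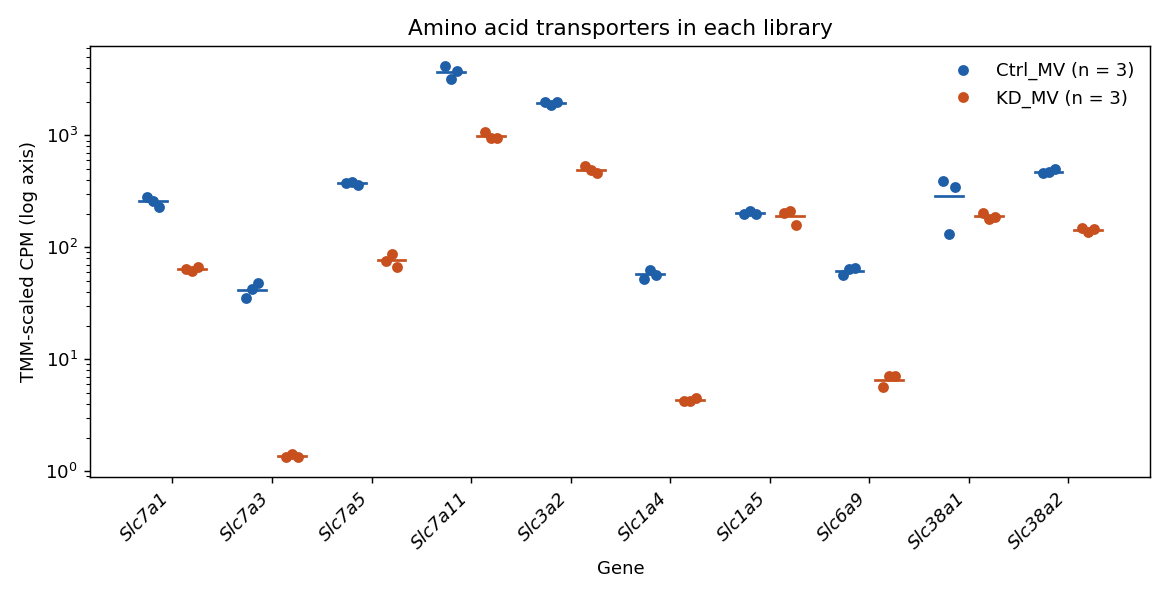
TMM-scaled CPM (log axis) of the 10 transporters in each of the 6 libraries; points are libraries and lines are group means (n = 3 per group). The groups are apart for 8 genes and overlap for Slc1a5 and Slc38a1, where Ctrl_MV replicate 2 lies at 133 CPM.

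Both cationic amino acid carriers among the 10 genes were lower in KD_MV. Slc7a1 (chromosome 5, 148327410 to 148399904, minus strand, mm10) encodes CAT-1, the widely expressed carrier for arginine, lysine and ornithine. It was at 285, 262 and 231 CPM in Ctrl_MV replicates 1, 2 and 3 and at 64.0, 61.1 and 67.2 CPM in KD_MV replicates 1, 2 and 3. All KD_MV libraries were lower, by a log2 difference of -2.02 ± 0.11 (SE), or 4.04-fold. Slc7a3 (chromosome X, 101079210 to 101086020, minus strand) encodes CAT-3, a related carrier best known from brain and embryonic tissue. It was at 35.5, 42.1 and 47.8 CPM in Ctrl_MV and at 1.34, 1.41 and 1.34 CPM in KD_MV. The KD_MV values rest on 60, 63 and 64 reads, and its log2 difference of -4.93 ± 0.16 (SE), or 30.5-fold lower, was the lowest of the 10.

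Because both genes are counted in the same library, their count ratio does not depend on scaling. The reads of Slc7a1 divided by those of Slc7a3 gave 8.03, 6.22 and 4.83 in Ctrl_MV and 47.6, 43.3 and 50.1 in KD_MV. Within the pair the balance was therefore shifted towards Slc7a1 in each KD_MV library, while both genes were lower there.

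Slc3a2 and both of its light chains among the 10 genes were lower in KD_MV, by similar amounts. Slc3a2 (chromosome 19, 8706882 to 8723369, minus strand) encodes the heavy chain 4F2hc (CD98), a glycoprotein that carries no substrate itself and brings light chains such as those of Slc7a5 and Slc7a11 to the membrane. It was at 1990, 1861 and 1992 CPM in Ctrl_MV and at 533, 489 and 459 CPM in KD_MV. Both groups were tight, and the log2 difference was -1.98 ± 0.11 (SE). Slc7a5 (chromosome 8, 121881150 to 121907694, minus strand) encodes LAT1, which imports leucine and other large neutral amino acids in exchange for glutamine. It was at 378, 385 and 363 CPM in Ctrl_MV and at 76.3, 86.7 and 67.2 CPM in KD_MV, a log2 difference of -2.29 ± 0.12 (SE).

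Slc7a11 (chromosome 3, 49892526 to 50443614, minus strand) encodes xCT, which takes up cystine in exchange for glutamate and so feeds glutathione synthesis. It had the most reads of the 10 genes, with 4215, 3175 and 3742 CPM in Ctrl_MV and 1067, 952 and 939 CPM in KD_MV. The highest KD_MV library was well under the lowest Ctrl_MV library, and the log2 difference was -1.91 ± 0.14 (SE). Within the locus GENCODE M21 places 5 other genes on either strand. Of these 4 had 0 counts in every library, and Gm37498, an unconfirmed transcript on the same strand, had at most 239 counts, against 104900 or more for Slc7a11 in Ctrl_MV and 42446 or more in KD_MV. The 2 promoter matches to the C/EBP-ATF core printed above belong to this gene.

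Between Slc7a11 and Slc3a2 the read ratio was 2.12, 1.71 and 1.88 in Ctrl_MV and 2.0, 1.95 and 2.05 in KD_MV, with overlapping groups. Levels of different genes are compared per length, in the deposited TPM, an abundance normalised for length and library. On that scale Slc3a2 was 2.09 ± 0.160 times the sum of Slc7a5 and Slc7a11 in Ctrl_MV and 2.09 ± 0.0180 times in KD_MV (SD, n = 3 per group). Over 6 light chains known to pair with it (Slc7a5, Slc7a6, Slc7a7, Slc7a8, Slc7a10 and Slc7a11) the ratio was 1.78, 2.06 and 1.97 in Ctrl_MV and 1.72, 1.69 and 1.61 in KD_MV. These groups did not overlap, but they lay close, and the exact two-sided permutation test gave p = 0.1, the smallest that 3 against 3 allows.

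The light chains that are no members had other values. Slc7a6, an exchanger of cationic for neutral amino acids (y+LAT2), rose from 30.7 ± 0.919 (SD, n = 3) to 39.4 ± 2.48 CPM (log2 difference 0.36 ± 0.10 (SE), edgeR adjusted p = 0.0152). It was the only carrier among the other plasma membrane carriers that rose, was named after its value was seen, and its call was lost without Ctrl_MV replicate 3, KD_MV replicate 1 or KD_MV replicate 2. Slc7a8, LAT2, fell from 89.7 ± 13.6 to 49.6 ± 9.54 CPM (log2 difference -0.85 ± 0.16 (SE), edgeR adjusted p = 0.00219). In TPM, Slc7a6, Slc7a7 and Slc7a8 together came to 0.422, 0.349 and 0.395 times Slc7a5 in Ctrl_MV and to 1.40, 1.25 and 1.82 times in KD_MV.

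Of the exchangers for small neutral amino acids, Slc1a4 was much lower in KD_MV and Slc1a5 was not. Slc1a4 (chromosome 11, 20302180 to 20332713, minus strand) encodes ASCT1, an exchanger for alanine, serine, cysteine and threonine. It was at 52.5, 63.0 and 56.9 CPM in Ctrl_MV and at 4.21, 4.24 and 4.52 CPM in KD_MV. No KD_MV library came near the Ctrl_MV range, and the log2 difference was -3.73 ± 0.12 (SE), or 13.3-fold lower. Its promoter, printed above, holds 1 match to the C/EBP-ATF core. Slc1a5 (chromosome 7, 16781340 to 16798274, plus strand) encodes ASCT2, the closest relative of ASCT1 and a main route of glutamine into many cells. It was at 199, 210 and 199 CPM in Ctrl_MV and at 204, 211 and 157 CPM in KD_MV. KD_MV replicates 1 and 2 lay at the level of Ctrl_MV and replicate 3 lay below it, so the log2 difference of -0.09 ± 0.12 (SE) was within its error. In deposited TPM, which has no composition factor, Slc1a5 was at 125, 131 and 117 in Ctrl_MV and at 179, 193 and 152 in KD_MV, and there the groups did not overlap. The sign of its log2 difference depended on scaling, at 0.32 with library size as the only scaling and 0.48 with limma on log2(TPM + 1). The median of all genes was 0.43 and 0.51 on these scalings, so Slc1a5 did not stand above it. The sign also depended on 1 library, since the log2 difference was 0.03 without KD_MV replicate 3.

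Reads of Slc1a5 divided by reads of Slc1a4 gave 3.79, 3.34 and 3.49 in Ctrl_MV and 48.4, 49.9 and 34.7 in KD_MV. This ratio is free of scaling and separated the groups.

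**Figure D2:**
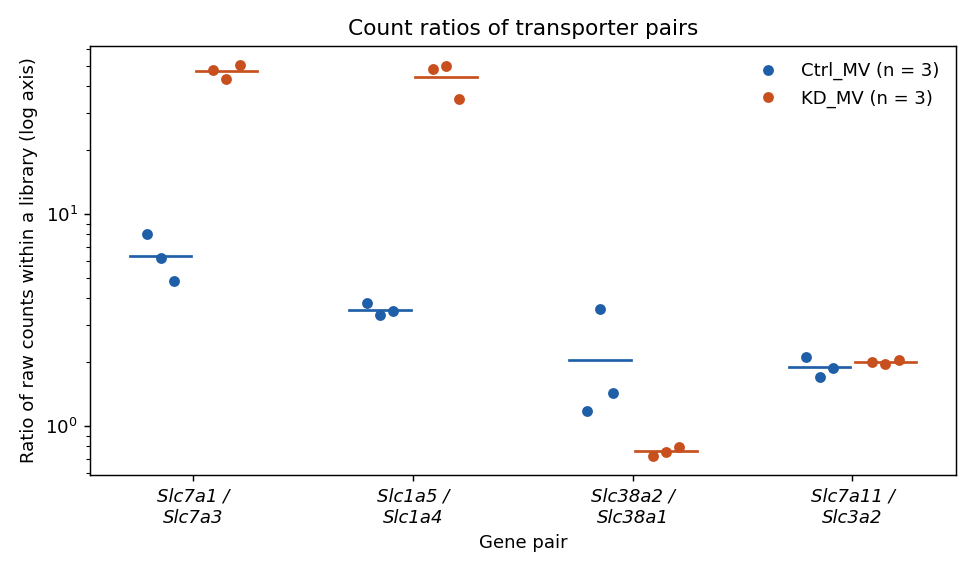
Ratio of raw counts of 2 transporters within each library (log axis) for 4 pairs; points are libraries and lines are group means (n = 3 per group). Slc7a1 over Slc7a3 and Slc1a5 over Slc1a4 were higher in every KD_MV library, Slc7a11 over Slc3a2 overlapped, at 1.71 to 2.12, and Slc38a2 over Slc38a1 reached 3.55 in Ctrl_MV replicate 2.

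The glycine carrier was also much lower in KD_MV. Slc6a9 (chromosome 4, 117834506 to 117875198, plus strand) encodes GlyT1, which takes up glycine with sodium and chloride and is known from glia and from red cell precursors, where glycine is used for heme. It was at 56.9, 63.8 and 65.6 CPM in Ctrl_MV and at 5.63, 7.02 and 7.08 CPM in KD_MV. The groups lay far apart, with a log2 difference of -3.24 ± 0.14 (SE), or 9.43-fold lower. The exons of 3 genes on the opposite strand overlap those of Slc6a9. Ccdc24 had 77 to 230 counts in Ctrl_MV and 29 to 58 in KD_MV, B4galt2 had at most 44 and Gm17114 at most 72, against 1837 to 2200 counts of Slc6a9 in Ctrl_MV and 251 to 338 in KD_MV. Whether strand was used in the counting is not stated, so a part of these reads is uncertain.

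Most erythroid markers were lower in KD_MV, as Slc6a9 was. Of 13 measured erythroid markers 10 fell and 0 rose, beside 24.9% lower and 27.8% higher over all genes tested. Their sum was 106600 to 123700 CPM in Ctrl_MV and 9326 to 10900 CPM in KD_MV, and none was at 0. Klf1, Gata1 and Rhag, named after their values were seen, did not pass (adjusted p = 0.105, 0.0808 and 0.239 in edgeR's test). Klf1, a transcription factor of red cell precursors, was at 4.72 to 6.82 CPM in Ctrl_MV and 3.74 to 4.55 CPM in KD_MV. Gata1 lay the other way, at 5.76 to 7.39 CPM in Ctrl_MV and 7.71 to 8.68 CPM in KD_MV. The part of erythroid RNA in the difference of Slc6a9 was not tested.

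Of the sodium-coupled neutral carriers, Slc38a2 was lower in every KD_MV library, and Slc38a1 varied within Ctrl_MV. Slc38a2 (chromosome 15, 96687394 to 96699698, minus strand) encodes SNAT2, a system A carrier for alanine, serine, glutamine and other neutral amino acids that is known to be induced when amino acids are short. An element of the C/EBP-ATF type has been described in the first intron of the human gene, outside the promoter window used here. Slc38a2 was at 457, 471 and 497 CPM in Ctrl_MV and at 148, 137 and 147 CPM in KD_MV. Replicates were close together in both groups, and the log2 difference was -1.72 ± 0.09 (SE). Slc38a1 (chromosome 15, 96571418 to 96642913, minus strand) lies beside it on the same strand and encodes SNAT1, which carries glutamine among other neutral amino acids. It was at 389, 133 and 348 CPM in Ctrl_MV and at 204, 181 and 185 CPM in KD_MV. Ctrl_MV replicate 2 was lower than every other library, whereas the other two Ctrl_MV libraries were above all of KD_MV.

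The log2 difference of Slc38a1 was -0.61 ± 0.32 (SE) with all libraries and -0.95 without Ctrl_MV replicate 2, where it passed the threshold. Limma on log2(TPM + 1) gave 0.13, where Slc38a1 was at 73.3, 23.6 and 60.4 TPM in Ctrl_MV and 54.2, 50.3 and 50.9 TPM in KD_MV. The highest Ctrl_MV library was 2.93 times the lowest for this gene, a spread that 7 of 2086 genes (0.336%) with a mean of at least 100 CPM in Ctrl_MV equalled or exceeded, Slc38a1 among them. For the other 9 transporters that spread ran from 1.06 to 1.35 in Ctrl_MV. Slc38a2 reads divided by Slc38a1 reads gave 1.18, 3.55 and 1.43 in Ctrl_MV and 0.723, 0.757 and 0.794 in KD_MV, and the KD_MV values were lower in each case.

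Levels per length put the 10 transporters in an order. In deposited TPM, Slc3a2 was the highest in Ctrl_MV at 1415 ± 68.2 (SD, n = 3), followed by Slc7a11 at 538 ± 84.3. Slc7a5 (142 ± 7.09), Slc38a2 (134 ± 2.49) and Slc1a5 (124 ± 6.88) came next, and the ranges of Slc7a5 and Slc38a2 overlapped. Slc38a1 (52.5 ± 25.8) and Slc7a1 (48.1 ± 6.40) could not be ordered beyond their spread. The lowest were Slc6a9 (26.7 ± 3.08), Slc7a3 (23.0 ± 2.82) and Slc1a4 (19.4 ± 1.62 TPM), each overlapping its neighbour. With TPM recomputed from the counts and GENCODE exonic lengths, Slc1a4 came before Slc6a9 and Slc7a1 before Slc38a1, so these places depend on the length used.

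In KD_MV the order was Slc3a2 (533 ± 32.5 TPM), Slc7a11 (213 ± 12.0), Slc1a5 (175 ± 20.7), Slc38a2 (60.4 ± 1.81), Slc38a1 (51.8 ± 2.10), Slc7a5 (43.2 ± 6.12), Slc7a1 (17.8 ± 0.835), Slc6a9 (4.22 ± 0.537), Slc1a4 (2.15 ± 0.119) and Slc7a3 (1.26 ± 0.136). In deposited TPM the ranges of all 9 neighbouring pairs were separate. With TPM recomputed from the counts and exonic lengths 8 were, since Slc6a9 (3.25 to 4.29) overlapped Slc1a4 (3.19 to 3.43), and Slc7a5 (62.8 ± 9.83) came in the fourth place, above Slc38a2 (49.3 ± 0.563). On both scales Slc1a5 stood in the fifth place in Ctrl_MV and in the third in KD_MV. Slc7a5 stood in the third place in Ctrl_MV on both scales, and in KD_MV in the sixth in deposited TPM and in the fourth in recomputed TPM. Slc6a9, Slc7a3 and Slc1a4, the lowest genes per length in Ctrl_MV, were also those with the most negative log2 differences. The sum of the 10 genes was 2714, 2360 and 2498 TPM in Ctrl_MV and 1147, 1126 and 1031 TPM in KD_MV. Slc3a2 and Slc7a11 made up 76.7 to 77.9% of it in Ctrl_MV and 66.5 to 68.7% in KD_MV, and Slc1a5 went from a mean share of 4.93% to 15.9%.

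**Figure D3:**
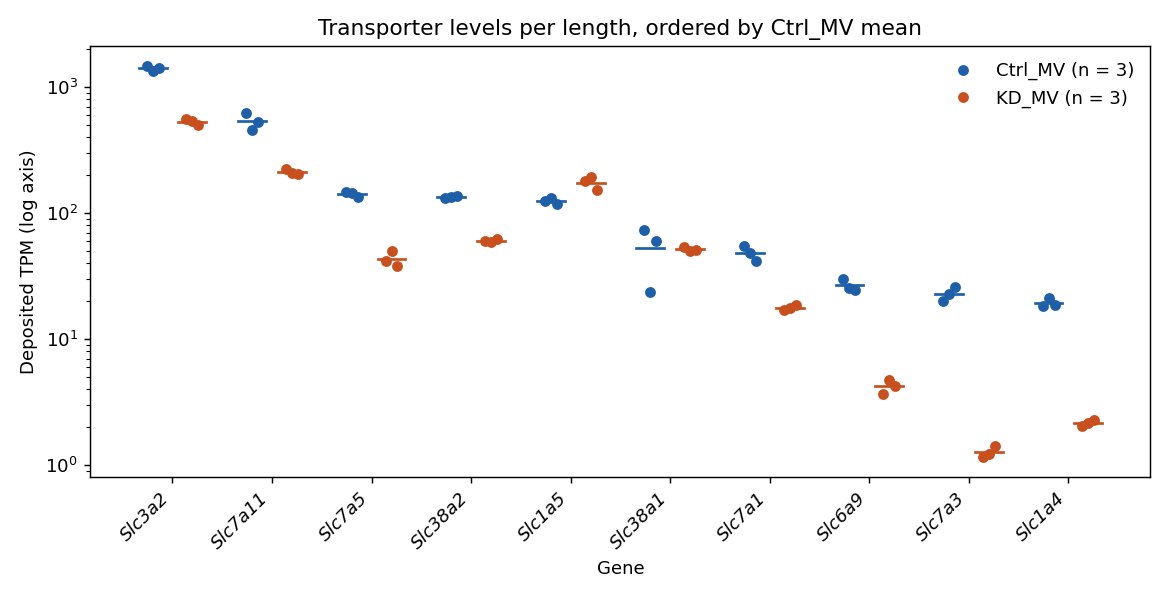
Deposited TPM (log axis) of the 10 transporters, ordered by their mean in Ctrl_MV; points are libraries and lines are group means (n = 3 per group). Slc3a2 and Slc7a11 were the highest in both groups, and Slc6a9, Slc7a3 and Slc1a4, at 18.2 to 30.2 TPM in Ctrl_MV, were at 1.16 to 4.76 TPM in KD_MV.

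Other plasma membrane carriers were taken from a list of 36 genes that are not among the 10. Only 15 had enough reads to be tested. Of these 11 fell, 1 rose and 3 did not pass, beside 24.9% lower and 27.8% higher over all genes tested. Their median log2 difference was -0.85, beside 0.03 over all genes. With library size as the only scaling 7 fell and 2 rose. Slc43a2, LAT4, a carrier of large neutral amino acids that needs no heavy chain, was at 434, 332 and 319 CPM in Ctrl_MV and at 118, 149 and 131 CPM in KD_MV, and it fell (log2 difference -1.45 ± 0.15 (SE), edgeR adjusted p = 6.81e-05). Its relative Slc43a1, LAT3, fell from 42.1 ± 1.12 to 18.9 ± 0.977 CPM (log2 difference -1.16 ± 0.10 (SE), edgeR adjusted p = 3.22e-05). Slc16a10, TAT1, a carrier of aromatic amino acids, fell from 55.3 ± 6.95 to 27.4 ± 1.69 CPM (log2 difference -1.01 ± 0.12 (SE), edgeR adjusted p = 1.81e-04).

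The remaining named falls were at low levels. Slc6a19, a neutral carrier known from gut and kidney, was at 5.48 ± 0.213 and 2.26 ± 0.363 CPM (log2 difference -1.28, edgeR adjusted p = 4.21e-04) and Slc1a2, a glutamate carrier known from glia, at 1.35 ± 0.0725 and 0.407 ± 0.0856 CPM (log2 difference -1.71, edgeR adjusted p = 9.02e-04). Slc1a1, a neuronal and epithelial glutamate carrier, had 33, 16 and 23 reads in Ctrl_MV and 0, 0 and 2 in KD_MV. Its scaled ratio was 0.0201 with an exact 95% interval of 0.00238 to 0.0751, which covers counting error only. Slc38a4, a system A carrier of the family of Slc38a1 and Slc38a2, had 0 counts in every library.

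**Figure D4:**
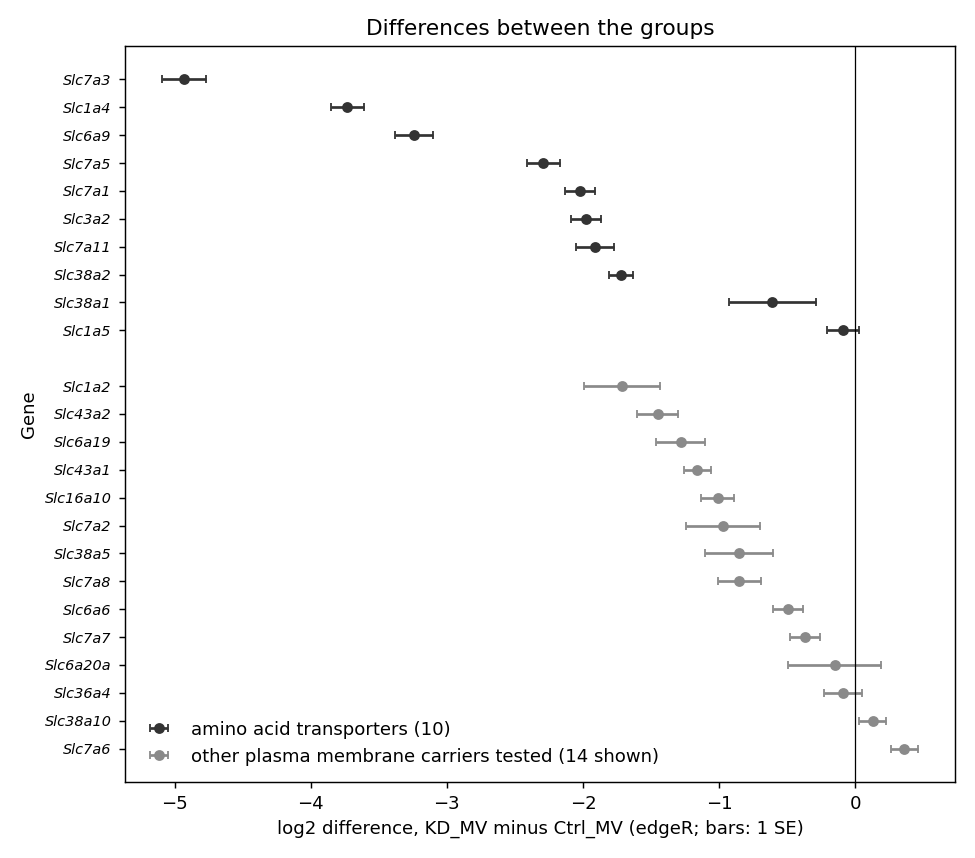
Log2 difference (KD_MV minus Ctrl_MV, edgeR; bars are 1 SE) of the 10 transporters, in black, and of 14 of the 15 other plasma membrane carriers tested, in grey; Slc1a1, with 2 reads in KD_MV, is left out. The transporters run from -4.93 to -0.09 and the other carriers from -1.71 to 0.36.

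Carriers of the lysosome return amino acids from digested protein to the cytosol. Of 10 listed genes 9 were tested. Of these 5 fell, 1 rose and 3 did not pass, beside 24.9% lower and 27.8% higher over all genes tested. Their median log2 difference was -0.35. With library size only 3 fell and 2 rose, and 3 fell without Ctrl_MV replicate 2 or KD_MV replicate 2. Slc38a7, a lysosomal glutamine carrier, fell from 166 ± 7.14 to 58.6 ± 6.26 CPM (log2 difference -1.50 ± 0.11 (SE), edgeR adjusted p = 1.18e-05). Slc12a9, which belongs to the cation-chloride cotransporter family and is no amino acid carrier, rose from 5.76 ± 1.10 to 12.9 ± 2.32 CPM (log2 difference 1.16 ± 0.19 (SE), edgeR adjusted p = 0.00110).

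Genes that signal amino acid supply to the kinase complex mTORC1 were called in both directions. All 33 listed genes were tested, 12 fell, 7 rose and 14 did not pass, beside 24.9% lower and 27.8% higher over all genes tested, and the median log2 difference of 0.03 was that of all genes. With library size only 7 fell and 17 rose, and the number that rose was 4 without Ctrl_MV replicate 2, Ctrl_MV replicate 3, KD_MV replicate 1 or KD_MV replicate 2. Sesn2, a leucine-binding inhibitor of the pathway, was at 235, 247 and 233 CPM in Ctrl_MV and at 22.7, 23.7 and 24.7 CPM in KD_MV. It fell with little spread (log2 difference -3.33 ± 0.10 (SE), edgeR adjusted p = 2.47e-07). Fnip2, a partner of folliculin at the lysosome, fell from 648 ± 105 to 221 ± 5.29 CPM (log2 difference -1.55 ± 0.13 (SE), edgeR adjusted p = 2.47e-05), and Flcn, folliculin itself, from 194 ± 25.4 to 78.9 ± 27.7 CPM (log2 difference -1.29 ± 0.25 (SE), edgeR adjusted p = 0.00219). Gatsl2, an older symbol of Castor2, a relative of the arginine sensor Castor1, rose from 1.45 ± 0.0884 to 5.70 ± 0.792 CPM (log2 difference 1.98 ± 0.18 (SE), edgeR adjusted p = 4.52e-05).

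Regulators known to act on these transporters were listed as 16 genes. Of these 10 fell, 4 rose and 2 did not pass, beside 24.9% lower and 27.8% higher over all genes tested. Their median log2 difference was -1.10. Atf4 was at 973, 1073 and 1034 CPM in Ctrl_MV and at 267, 257 and 245 CPM in KD_MV (log2 difference -2.0 ± 0.10 (SE), edgeR adjusted p = 2.06e-06). The log2 differences of the 10 transporters ran from -4.93 to -0.09. Cebpg, a binding partner of ATF4, fell from 163 ± 2.89 to 32.3 ± 2.18 CPM (log2 difference -2.34, edgeR adjusted p = 1.03e-06). Ddit3, the stress factor CHOP, fell as well (log2 difference -2.39 ± 0.11 (SE), edgeR adjusted p = 1.28e-06). Trib3 (-4.65), Atf5 (-4.60), Nupr1 (-2.29) and Atf3 (-1.26), which are known targets or partners of ATF4, fell too, with log2 differences in parentheses.

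Nfe2l2, which encodes NRF2 and is known to drive Slc7a11, was at 733, 745 and 781 CPM in Ctrl_MV and at 299, 273 and 363 CPM in KD_MV. It fell in all KD_MV libraries (log2 difference -1.27 ± 0.12 (SE), edgeR adjusted p = 5.68e-05). Its inhibitor Keap1 did not pass. The 4 genes that rose, named after their values were seen, were the GCN2 gene Eif2ak4 (log2 difference 0.95), the eIF2alpha kinase genes Eif2ak3 (0.58) and Eif2ak2 (0.62), and Myc (1.19), a growth factor-induced transcription factor known to induce several of the 10 transporters. Myc was at 35.0, 48.9 and 52.4 CPM in Ctrl_MV and at 79.2, 81.8 and 150 CPM in KD_MV, so the third KD_MV library stood above the other two. RNA levels do not measure the translation of Atf4 or the activity of the kinases.

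**Figure D5:**
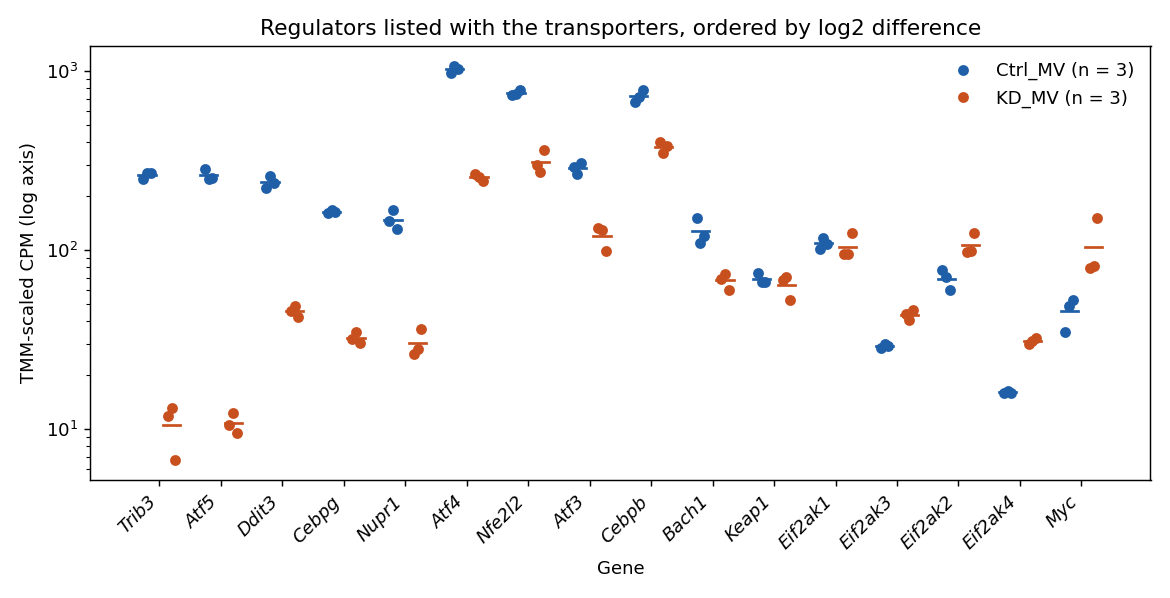
TMM-scaled CPM (log axis) of 16 regulators listed with the transporters, ordered by log2 difference; points are libraries and lines are group means (n = 3 per group). Atf4 was at 973 to 1073 CPM in Ctrl_MV and 245 to 267 CPM in KD_MV, and Myc and 3 eIF2alpha kinase genes were higher in KD_MV.

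Markers of other cells also moved with the groups, and their part in the transporters' values was not tested. For comparison, 24.9% of all genes tested passed as lower and 27.8% as higher. B-lineage markers (9 of 12 rose, 1 fell) summed to 2192 to 2840 CPM in Ctrl_MV and 4676 to 5448 CPM in KD_MV. Eosinophil markers (6 of 9 rose) summed to 30.3 to 33.1 and 472 to 655 CPM, and early granulocyte precursor markers (6 of 9 measured rose, 1 fell) to 52.0 to 62.8 and 81.4 to 96.3 CPM. The eosinophil markers that rose were Epx, Prg2, Prg3, Ear1, Ear2 and Ear6. Siglecf (log2 difference 0.6), Ccr3 (0.03) and Il5ra (-0.24) were not called, all named after their values were seen. Monocyte and macrophage markers (3 of 12 tested fell and 5 rose) summed to 2172 to 2343 and 1517 to 1744 CPM. Most of that sum was Cd68, Adgre1 and Csf1r, named after their values were seen. Adgre1 and Csf1r fell, Cd68 was not called, and the 5 markers that rose were at lower levels. For the hepatoma markers, which stand for RNA of the vesicle donors, 5 of 6 tested fell, and the sum was 33.0 to 45.3 and 10.9 to 15.8 CPM. Of their 15 genes Apob, Serpina1a, Fgb, Fga and Ahsg were at 0 in every library and Alb was at 0.209 to 0.847 CPM. Afp, named after its value was seen, was the larger part of the sum. It was at 21.9 to 33.8 CPM in Ctrl_MV and 6.1 to 9.1 CPM in KD_MV (log2 difference -1.78).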

How the data were processed

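The series holds 6 libraries of mouse neutrophil RNA. Per the labels' protocols, libraries were made from total RNA with a stranded mRNA kit. Trim Galore, Subread and featureCounts and the mm10 build are named in the submitters' processing notes, without versions or a strand setting. The deposited count columns hold raw whole-number counts per gene, and the deposited TPM and FPKM columns hold values per length made by the authors, per the file headers. The FPKM values deposited by the authors were not used further. File positions equalled GENCODE M21 for 9 of the 10 transporters (not Slc38a2).

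The main test of the counts was run in edgeR 4.0.16 (R 4.3.3): filterByExpr (minimum count 10, total 15), TMM factors, glmQLFit and glmQLFTest on group over all 6 libraries, two-sided, Benjamini-Hochberg adjustment over 16071 genes, threshold 0.05. Standard errors are the absolute log2 difference over the square root of F. The fit was tested on simulated data. The members and gene lists were chosen with earlier results of these data known. The rule for named genes took all members, Atf4, Ddit3, Nfe2l2, and per list up to 8 genes that passed with an absolute log2 difference of at least 1. Other genes were named outside this rule, among them Slc7a7, Slc7a8, Slc38a4 and Keap1. Pairs of libraries within a group differed by a chi-square per degree of freedom of 20.3 to 97.9, so none looked deposited again. KD_MV replicate 3 stood apart, at 97.9 and 93.0 against KD_MV replicates 1 and 2, which gave 20.3 between them. The Ctrl_MV pairs were at 23.7 to 37.1. Alternatives were RLE factors, library size only, no filter, a stricter filter (3 libraries with a CPM of 1 or more), DESeq2 1.42.0, limma-voom (limma 3.58.1), a replicate block, each library left out, and hemoglobin genes left out. Limma on log2(TPM + 1), for genes with a mean TPM of at least 1, was added after seeing the data.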

Additional observations from a re-analysis of the deposited data

How the results depend on the processing

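For the 10 transporters 145 of 150 values under the alternatives kept their direction and their side of the threshold. The exceptions were Slc1a5, whose log2 difference was 0.32 with library size only, 0.48 with limma on log2(TPM + 1) (adjusted p = 0.00646, so 1 transporter was then called higher) and -0.16 to 0.03 with each library left out (0.03 without KD_MV replicate 3), and Slc38a1, at 0.13 with limma on log2(TPM + 1) and called at -0.95 without Ctrl_MV replicate 2. Library size only moved the median of all genes from 0.03 to 0.43, and limma on log2(TPM + 1) moved it to 0.51, so differences are relative to that shift. Slc7a3 ran from -5.04 to -3.40 and Slc7a11 from -2.01 to -1.33, with -3.40 and -1.33 from limma on log2(TPM + 1). The 1 added on that scale is close to the Slc7a3 mean of 1.26 TPM in KD_MV, so it also shrinks that difference. All 20 other genes named by the rule above kept direction and call in the alternatives that tested them. With library size only, 2010 genes were called lower and 7455 higher, and with limma on log2(TPM + 1) 1228 lower and 7719 higher. On those scalings, in that order, the other plasma membrane carriers gave 7 and 4 lower and 2 and 3 higher, the lysosomal carriers 3 and 1 lower and 2 and 2 higher, and the amino acid sensing genes 7 and 6 lower and 17 and 20 higher. Without a filter 3 lysosomal carriers were lower. Leaving out each library gave 3478 to 4216 genes lower and 3809 to 4494 higher. The same gave 8 to 9 transporters lower, 9 to 11 other carriers lower and 0 to 1 higher, 3 to 5 lysosomal carriers lower, 10 to 12 sensing genes lower and 4 to 8 higher, and 10 regulators lower and 4 higher. Of the 9 neighbouring pairs in the TPM order, 5 to 7 were separate in Ctrl_MV with each library left out, and 9 in KD_MV. With TPM from counts and exonic lengths 6 were separate in Ctrl_MV and 8 in KD_MV. The ratio of Slc3a2 to its light chains was 1.88 to 2.02 in Ctrl_MV and 1.65 to 1.70 in KD_MV with each library left out, and 2.09 and 2.09 with Slc7a5 and Slc7a11 as the only light chains, so the separation of the groups in that ratio depended on which light chains were summed. The replicate numbers did not pair the libraries (correlations of same-numbered libraries -0.0067, -0.079 and -0.054). With the replicate block 4 sensing genes were called higher, and the transporters kept 8 called lower. The causes were not tested. Counts of 60 to 64 reads limit Slc7a3 in KD_MV.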
